A study of Mus musculus with 12 samples.

Results

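The genes described here are the ribosomal protein pseudogenes that left reads in sorted mouse heart cells. A gene was taken when its symbol began with Rpl or Rps and a number, held "-ps", and had 10 or more raw counts in at least 1 library, so the members were chosen by their measured counts. Of the 263 genes with such a symbol, 46 met the rule, 24 named for proteins of the large ribosomal subunit (Rpl) and 22 for the small subunit (Rps). Another 150 reached at most 1 to 9 counts in a library and 67 had 0 counts in every library. The annotation types 43 of the 46 as processed pseudogenes, *Rps26-ps1* as a transcribed processed pseudogene, and *Rpl10-ps3* and *Rpl9-ps6* as protein coding.

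The libraries came from Purkinje cells (PCs) of the cardiac conduction system and from working ventricular myocytes (VMs) of adult male mice, with 3 libraries each of WT PC, KO PC, WT VM and KO VM. KO mice lacked *Ncam1* (Ncam-1, a neural cell adhesion molecule) and had been kept on a C57BL/6 background. All 4 groups, WT included, carried the *Cntn2*-EGFP transgene, a bacterial artificial chromosome reporter bred on a CD1 background that marks PCs. Cells were loaded with the mitochondrial dye TMRM at 50 nM and sorted as dye-positive, EGFP-positive PCs or dye-positive, EGFP-negative VMs. Each library is a pool of sorted cells, so fewer cells of a type and less RNA per cell cannot be told apart.

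Processed pseudogenes arise when a messenger RNA is copied back into DNA and inserted elsewhere in the genome, which leaves a copy without introns and usually without the promoter of its parent. Ribosomal protein genes, which every cell transcribes strongly, have left more such copies in mammalian genomes than most other families. Because a copy can stay nearly identical to its parent, short reads from the 2 are hard to tell apart, and a count on a pseudogene need not be a transcript of it.

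Sequence set the frame for reading these counts. Of the 46 members, 45 aligned best to the ribosomal protein gene they are named for, with a median identity of 99.0% (range 75.2% to 100%), and 10 matched their parent at every aligned base. The remaining member was still set against the gene of its name. Cut into windows of 50 bases, the length of 1 sequenced end, a member had a median of 77.5% of its windows present letter for letter in the transcripts of some other gene. For 10 members, among them *Rpl31-ps8*, *Rps16-ps2*, *Rpl10a-ps1* and *Rps13-ps2*, every window was found in another gene. At the other end *Rpl36a-ps4*, 75.2% identical to *Rpl36a*, had no window in common with any other gene. For 37 members the longest codon run from an ATG, in any frame, was 95% or more of the parent's in the aligned stretch. Such a run need not keep the parent's start or frame. In *Rps15a-ps6*, counted among them, a stop codon lies soon after the parent's start codon, and for *Rpl36a-ps4* the runs compared held only 34 codons. The search covered annotated transcripts only and not the whole genome.

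The stretches printed next set copies whose counts are described further on beside their parents. The first set compares bases 421 to 480 of *Rps13-ps1* (GRCm38, chr8:87048109-87048168, plus strand) with the matching stretch of *Rps13* and of the second copy, *Rps13-ps2* (chr7:88530450-88530509, minus strand). Capitals mark the bases at which *Rps13-ps1* and *Rps13* differ.
Rps13-ps1: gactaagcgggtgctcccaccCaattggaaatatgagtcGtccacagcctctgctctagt
Rps13: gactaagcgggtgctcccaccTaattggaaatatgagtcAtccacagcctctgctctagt
Rps13-ps2: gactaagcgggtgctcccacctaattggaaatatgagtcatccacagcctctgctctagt

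These 2 bases, T442C and A460G, were the only mismatches over 522 aligned bases, with the base of the parent first, the position counted from 1 at the 5′ end of the pseudogene transcript, and the base of the pseudogene last. Of the 489 windows of *Rps13-ps1*, 59 occurred in no other gene. *Rps13-ps2* had 0 mismatches to *Rps13* over its 453 bases and no window of its own. Neither copy overlaps another annotated gene.

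The second set gives the first 60 bases of the 6 copies of *Rps15a*, beside the parent from its start codon. Capitals mark bases of a copy that differ from *Rps15a*, and *Rps15a-ps3* begins 2 bases before the start codon.
Rps15a: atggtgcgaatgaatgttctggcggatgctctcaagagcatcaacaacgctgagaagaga
Rps15a-ps2: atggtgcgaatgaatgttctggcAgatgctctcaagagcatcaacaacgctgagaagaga
Rps15a-ps3: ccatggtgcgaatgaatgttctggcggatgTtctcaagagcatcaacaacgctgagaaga
Rps15a-ps5: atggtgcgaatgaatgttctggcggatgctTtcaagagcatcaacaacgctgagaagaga
Rps15a-ps6: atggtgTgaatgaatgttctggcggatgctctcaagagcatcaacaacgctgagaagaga
Rps15a-ps7: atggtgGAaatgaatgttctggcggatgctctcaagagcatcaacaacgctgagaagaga
Rps15a-ps8: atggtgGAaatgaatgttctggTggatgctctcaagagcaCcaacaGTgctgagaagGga

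*Rps15a-ps8* had drifted furthest, with 30 mismatches, 92.2% identity and 306 of its 338 windows found in no other gene. *Rps15a-ps7* had 4 mismatches, C7G, G8A, T149C and C361G, and 114 of its 343 windows to itself. The 6 copies lie on chromosomes 19 (*Rps15a-ps2*), 4 (*Rps15a-ps3* and *Rps15a-ps8*), 5 (*Rps15a-ps5*), 11 (*Rps15a-ps6*) and 2 (*Rps15a-ps7*).

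The third set shows the member that met the on and off rule given below, *Rpl7a-ps5* (bases 441 to 500, chr17:57838722-57838781, minus strand), with capitals at its differences from *Rpl7a*, G472A and C480T.
Rpl7a-ps5: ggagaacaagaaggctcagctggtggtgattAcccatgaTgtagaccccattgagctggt
Rpl7a: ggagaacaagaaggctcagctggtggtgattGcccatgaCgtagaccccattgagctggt

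The 12 libraries held 13883427 to 42505705 counts on genes, of which 1532393 to 6761356 lay outside the mitochondrial genome, and levels are given as CPM, the counts of a gene per 1000000 of the latter. The targeted gene *Ncam1* was counted 34 to 116 times in the WT PC libraries and at most 1 time in those of KO PCs. WT PC library 2 stood apart: 63.9% of its read pairs did not align (18.8% to 24.7% in the other 11), it had the lowest non-mitochondrial depth, its erythroid marker genes summed to 1059 CPM (187 in WT PC library 1 and 46.6 or less in the other 10), and the parent genes of the members took 8224 CPM against 2971 to 4805 elsewhere. *Cntn2*, the gene of the PC reporter, had 22 and 39 counts in KO PC libraries 1 and 2 and 677 in library 3, against 231 to 922 in WT PCs and 2 to 7 in VMs. Summed over 8 markers each, cardiomyocyte genes held 123106 to 234275 CPM in every library, and Purkinje cell genes 388 CPM ± 151 (SD, n = 3) in WT PCs, 192 ± 161 in KO PCs and 24.3 to 42.9 in the VM libraries. Fibroblast markers (6 of 6 listed in the files) summed to 194 to 431 CPM in PCs and 18.4 to 117 in VMs. What part these differences play in the results given next was not tested. The labels do not say that the libraries of a group came from separate animals, so the p-values measure only the spread between libraries, which may be technical.

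The members were weakly counted in every group. Together the 46 held 347 CPM ± 218 (SD, n = 3) in WT PCs, 171 ± 27.8 in KO PCs, 181 ± 24.7 in WT VMs and 131 ± 14.8 in KO VMs. Library by library the WT PCs had 182, 594 and 266 CPM, the KO PCs 201, 146 and 167, the WT VMs 184, 155 and 204, and the KO VMs 114, 136 and 143. WT PC library 2 was far above the rest, and the KO PC values overlapped those of WT PC libraries 1 and 3. The 3 KO VM libraries all lay below the 3 WT VM libraries. The choice of members bears on this order, since 13 reached 10 counts in WT PC libraries only. Others, such as *Rps15a-ps8*, did so in WT libraries of both cell types only. In KO PC libraries only it was 2 members and in KO VM libraries only 0, and nothing is read from the order.

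Set against their own parents, the members took 54.5, 72.2 and 58.3 counts per 1000 parent counts in the WT PCs and 41.9, 39.2 and 48.8 in the KO PCs, which did not overlap, in members of which 13 had entered through WT PC libraries alone. In VMs the values were 53.9, 40.2 and 57.3 in WT and 28.7, 45.9 and 39.8 in KO, and these overlapped. *Rps13-ps1* weighed on this sum. With it left out, the WT VM values became 41.5, 40.1 and 46.8 and the KO VM values 28.6, 45.8 and 39.4, so that the ratio of KO to WT means in VMs went from 0.756 to 0.887. In PCs the corresponding values were 46.3, 72.0 and 50.8 in WT, and in KO they ran up to 48.7 in library 3, so that the groups then overlapped.

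**Figure D1:**
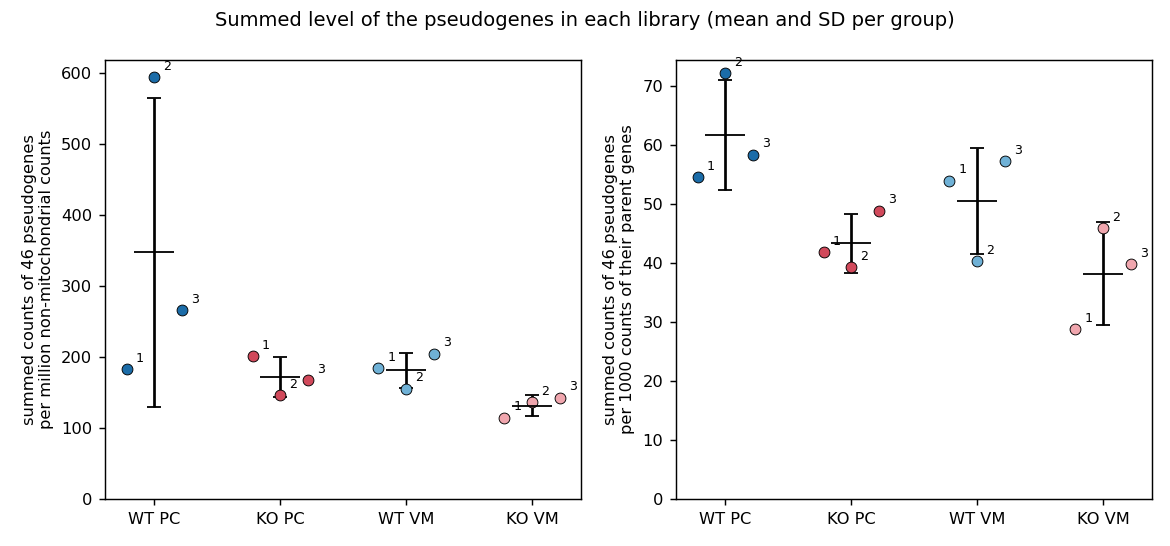
Summed counts of the 46 pseudogenes in each library, on the left in CPM and on the right per 1000 counts of their parent genes. Points are libraries numbered 1 to 3 within a group, and bars are the mean and SD of 3 libraries; WT PC library 2 reaches 594 on the left, while on the right the WT PCs sit between 54.5 and 72.2.

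Only 5 members had 10 or more counts in all 12 libraries, namely *Rpl31-ps8*, *Rps16-ps2*, *Rpl10a-ps1*, *Rps13-ps2* and *Rpl39-ps*. Another 13 reached 10 in a single library. Counts of 10 or more were confined to WT PC libraries for 13 members and to KO PC libraries for 2, so these entered the set through the group in which they were high. Members near the limit included *Rpl19-ps4*, with at most 10 counts, and *Rpl21-ps8*, *Rpl30-ps1*, *Rpl36a-ps4*, *Rps19-ps6* and *Rps6-ps2*, with at most 11. Just outside it, with at most 9, were *Rpl22-ps1*, *Rpl30-ps10* and *Rpl36-ps2* among others. The highest CPM of 34 of the 46 members was in WT PC library 2.

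Among the copies of large subunit genes, *Rpl31-ps8* had the highest mean over the 12 libraries, 22.2 CPM, and was also the highest per kb of its length, at 58.6 CPM per kb. Its raw counts were 106, 109 and 113 in WT PCs, 40, 30 and 72 in KO PCs, 45, 58 and 71 in WT VMs, and 32, 41 and 42 in KO VMs. The WT PC raw counts were the highest, but in CPM WT PC library 1 (15.7) lay below KO PC library 1 (25.5). As a percentage of *Rpl31* the copy lay between 9.85% and 23.4% in every library, with no group wholly above its genotype counterpart. *Rpl10a-ps1* (mean 13.3 CPM), *Rpl9-ps6* (9.12), *Rpl39-ps* (7.25) and *Rpl14-ps1* (6.98) followed.

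Among the copies of small subunit genes, *Rps16-ps2* came first with a mean of 17.0 CPM and raw counts of 84, 87 and 92 in WT PCs, 22, 41 and 60 in KO PCs, 34, 37 and 56 in WT VMs, and 21, 28 and 27 in KO VMs. Both *Rps16-ps2* and *Rpl31-ps8* are copies without a window of their own, so no 50-base read end lying wholly inside them could be told from their parents by its letters. Read ends that reach past the annotated copy were not examined. *Rps13-ps1* (12.3 CPM), *Rps24-ps3* (11.8), *Rps13-ps2* (9.98) and *Rps15a-ps6* (7.20) were the next. Per kb, the 10 members with every window in another gene ranged from 4.62 to 58.6 CPM with a median of 15.5, and the other 36 from 1.22 to 48.0 with a median of 4.29. Over the 46 members the share of windows found elsewhere and the level per kb had a Spearman's rho of 0.54, given as a description across genes that share libraries.

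**Figure D2:**
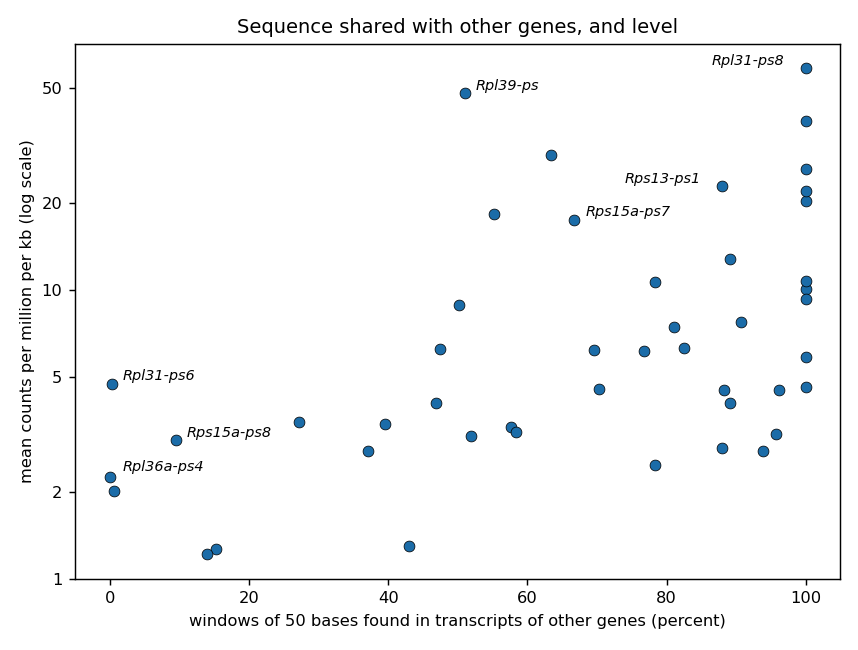
Each point is 1 of the 46 pseudogenes, with the percentage of its 50-base windows found in transcripts of other genes on the horizontal axis and its mean level over 12 libraries, in CPM per kb, on a log scale on the vertical axis. Of the 10 highest members, 5 have every window shared, among them Rpl31-ps8 at 58.6, while Rpl39-ps reaches 48.0 with 51.0% of its windows shared.

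*Rps13-ps1*, a copy of a small subunit gene that keeps the full reading frame of its parent, was counted in steps over the libraries. Its raw counts for WT PCs were 185, 2 and 162, and for KO PCs 0, 2 and 2. In WT VMs they were 137, 2 and 149, and in KO VMs 1, 1 and 4. It was therefore high in 4 libraries, numbers 1 and 3 of WT PCs and of WT VMs, and at 4 counts or fewer in the other 8, including number 2 of both WT groups and all KO libraries. As levels, the 4 high libraries had 27.4, 34.3, 42.6 and 37.4 CPM, and no other library exceeded 1.53 CPM.

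The parent *Rps13* did not show these steps. It had 484, 288 and 440 counts for WT PCs, 208, 251 and 382 for KO PCs, 254, 299 and 264 for WT VMs, and 261, 155 and 186 for KO VMs. In percent of the parent, *Rps13-ps1* reached 38.2, 0.694 and 36.8 in WT PCs and 53.9, 0.669 and 56.4 in WT VMs, against 0 to 0.797 in KO PCs and 0.383 to 2.15 in KO VMs. The percentage was thus high in the same 4 libraries.

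The other copy, *Rps13-ps2*, was counted in every library. It had 30, 38 and 38 counts for WT PCs, 35, 23 and 46 for KO PCs, 11, 29 and 11 for WT VMs, and 18, 18 and 19 for KO VMs. Its groups overlapped in both genotype comparisons, and in WT VMs its highest count fell in library 2, where *Rps13-ps1* was lowest.

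In edgeR (quasi-likelihood test, Benjamini-Hochberg adjusted over all genes tested) *Rps13-ps1* had a log2 fold change of -5.36 (SE 1.17) in KO PCs against WT PCs (adjusted p = 0.993) and -4.92 (SE 0.99) in KO VMs against WT VMs (adjusted p = 0.133), so neither passed. The parent *Rps13* had log2 fold changes of -0.12 (SE 0.36) and 0.12 (SE 0.22). The call on *Rps13-ps1* changed when the low WT library was left out: without WT PC library 2 the PC value was -5.88 (adjusted p = 0.000557), and without WT VM library 2 the VM value was -5.47 (adjusted p = 5.34e-06). Each is the WT library of its cell type with 2 counts, so its omission follows the values under test. Nothing is read from these adjusted p-values, and leaving out any other library gave no call. With all libraries kept, DESeq2's Wald test gave -5.44 in PCs with an adjusted p of 0.0107. On the log2 ratio to *Rps13*, the two-sided exact permutation test over 20 relabellings gave p = 0.2 in PCs and 0.3 in VMs, with a smallest possible p of 0.1.

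**Figure D3:**
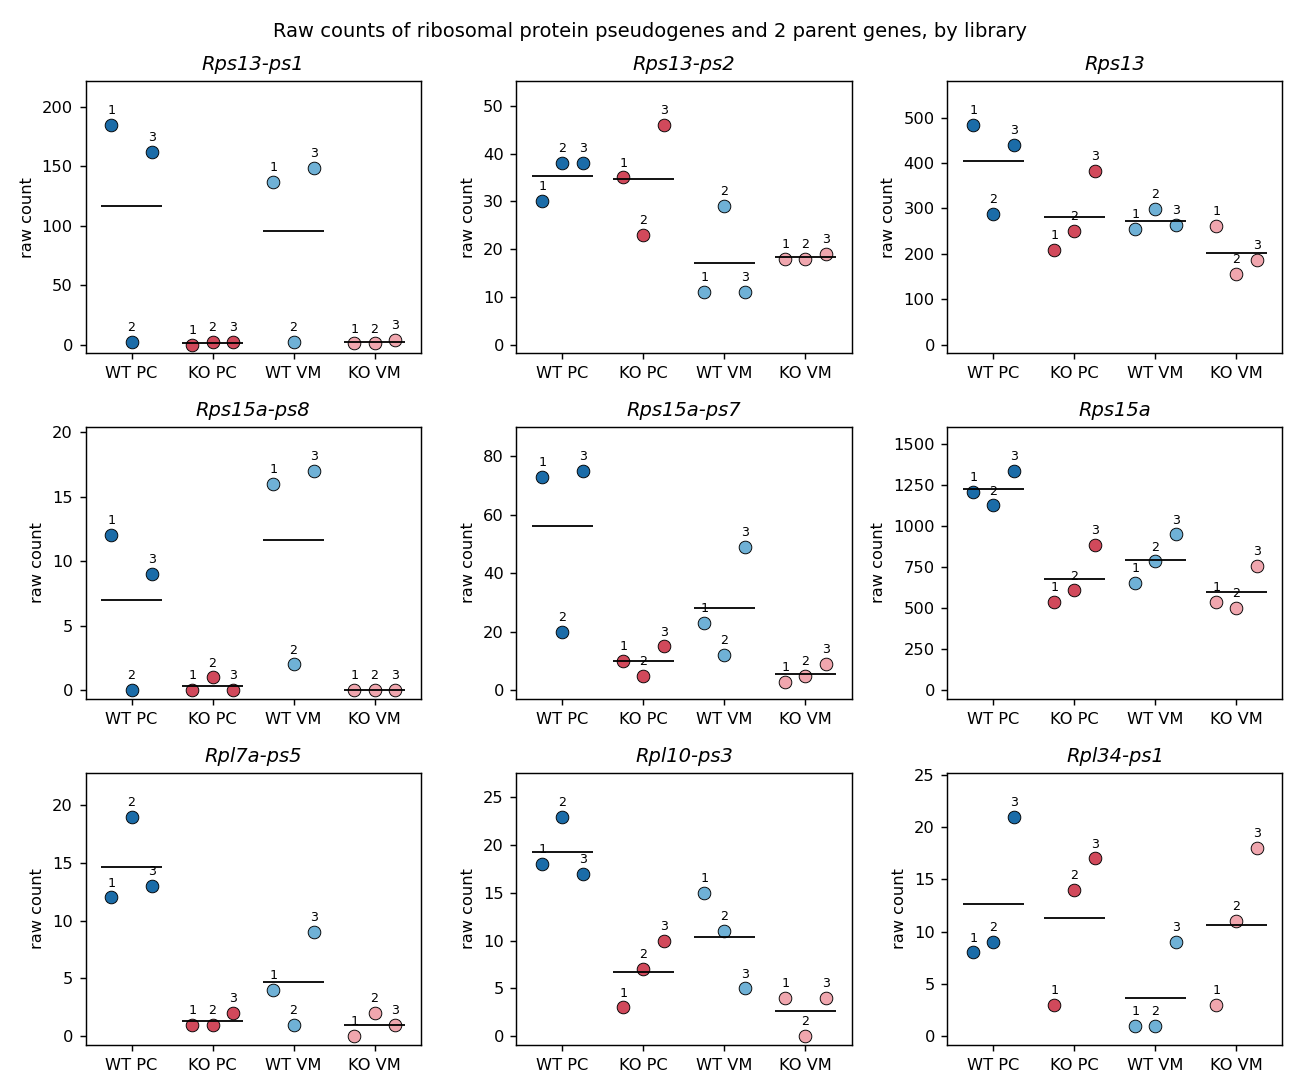
Raw counts per library of 7 pseudogenes and of the parent genes Rps13 and Rps15a, with libraries numbered 1 to 3 within each group and a line at the group mean; each panel has its own linear axis. Rps13-ps1 and Rps15a-ps8 are high in libraries 1 and 3 of both WT groups and near 0 in library 2 and in all KO libraries, while their parents are counted throughout.

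*Rps15a-ps8*, the most diverged copy of *Rps15a*, followed the same libraries at a lower level; it lay outside the rule for named genes and was picked after its values were seen. It had 12, 0 and 9 counts for WT PCs, 0, 1 and 0 for KO PCs, 16, 2 and 17 for WT VMs, and 0 for all 3 KO VMs. Against a limit of 3 counts in each KO VM library, its mean level in WT VMs was at least 2.56-fold higher. It did not reach the minimum level for the main test in VMs, and without that minimum edgeR's adjusted p (quasi-likelihood, Benjamini-Hochberg) was 0.0123. The fold and this adjusted p reuse the counts by which the copy entered the set, through WT libraries alone. Nothing is read from this adjusted p.

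A further pair of copies of *Rps15a* had more counts on average in the WT groups, and both were counted in every KO library. *Rps15a-ps7* had 73, 20 and 75 counts for WT PCs, 10, 5 and 15 for KO PCs, 23, 12 and 49 for WT VMs, and 3, 5 and 9 for KO VMs, so that every WT count lay above every KO count of its cell type. Its log2 fold change was -1.77 (SE 0.61) in PCs and -1.70 (SE 0.54) in VMs by edgeR's quasi-likelihood test (Benjamini-Hochberg adjusted p = 0.993 and 0.838). *Rps15a-ps6* had 43, 28 and 48 counts for WT PCs, 12, 7 and 16 for KO PCs, 32, 11 and 40 for WT VMs, and 9, 10 and 13 for KO VMs, which overlapped in VMs. In CPM its groups overlapped in PCs too, with 6.36 in WT PC library 1 and 7.64 in KO PC library 1. Within WT VMs library 2 was the lowest for both copies.

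For the remaining copies, *Rps15a-ps5* had 24, 5 and 19 counts for WT PCs, 6, 1 and 3 for KO PCs, 9, 8 and 20 for WT VMs, and 0, 3 and 5 for KO VMs. *Rps15a-ps3* had at most 16 counts and *Rps15a-ps2* at most 14, the latter with 0 counts in 7 of 12 libraries, and both were picked after their values were seen. The parent *Rps15a*, which encodes a protein of the small subunit, had 1212, 1128 and 1339 counts for WT PCs, 541, 609 and 888 for KO PCs, 653, 786 and 951 for WT VMs, and 537, 504 and 761 for KO VMs. Its log2 fold change in KO PCs was -0.59 (SE 0.45) and in KO VMs 0.15 (SE 0.15). On the log2 ratio to *Rps15a*, KO VMs lay below WT VMs without overlap for *Rps15a-ps7* (difference -1.69) and *Rps15a-ps5* (-2.06), and KO PCs below WT PCs for *Rps15a-ps6* (-0.88), each at the smallest exact permutation p of 0.1.

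A strict rule was used to ask which members were on in 1 group and off in another: 10 or more counts in every library of the first and 3 or fewer in every library of the second. A single member met it in any of the 4 pairs of groups, where 0.373% of all genes with 10 or more counts in a library did. It was *Rpl7a-ps5*, on in WT PCs with 12, 19 and 13 counts and off in KO PCs with 1, 1 and 2, a pattern met by 0.082% of those genes. The rule, and the fold change and ratio given below, reuse the counts by which this member was chosen. *Rpl7a-ps5* reached 10 counts in WT PC libraries only, so it entered the set through the group in which it was high. Its VM counts, 4, 1 and 9 for WT and 0, 2 and 1 for KO, overlapped. The pseudogene lies in an intron of *Cntnap5c* on the opposite strand, a gene with 0 counts in every library.

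The parent *Rpl7a*, for a protein of the large subunit, was counted 1188, 407 and 1040 times in the WT PC libraries and 382, 379 and 748 times in the KO PC libraries, and its log2 fold change was -0.21 (SE 0.25). That of *Rpl7a-ps5* was -3.36 (SE 1.18), with an adjusted p of 0.993 by edgeR's quasi-likelihood test and Benjamini-Hochberg adjustment. The difference in log2 ratio to the parent was -2.33, with no overlap between the groups and the smallest exact permutation p of 0.1. When every library was thinned at random to the depth of the smallest, the member had 0, 19 and 6 counts for WT PCs and 1 in each KO PC library, and it no longer met the rule.

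*Rps13-ps1* did not meet the on and off rule, with 2 counts in WT library 2 of each cell type and 4 in KO VM library 3. It met the rule in PCs without WT PC library 2, but not in VMs without WT VM library 2. *Rps15a-ps8* met it in VMs without WT VM library 2. *Rpl36a-ps2*, picked after its values were seen, met it in PCs without KO PC library 3, where it had 16 counts against 2 and 2 in the other KO PCs.

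*Rpl34-ps1*, a copy of the gene for a large subunit protein, had the opposite sign in VMs. Its counts were 1, 1 and 9 for WT VMs and 3, 11 and 18 for KO VMs, with 8, 9 and 21 in WT PCs and 3, 14 and 17 in KO PCs. The groups overlapped, and the log2 fold change in VMs was 2.07 (SE 0.78, edgeR quasi-likelihood, Benjamini-Hochberg adjusted p = 0.931) beside 0.23 (SE 0.21) for *Rpl34*. Without WT VM library 3 it was 3.64, and without KO VM library 3 it was 1.58. Each of its 50-base windows occurs in another gene, most often *Gm10154*.

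*Rpl10-ps3* is set apart by its place, chr9:50344201-50344968 on the minus strand, 0.545 Mb from *Ncam1* (chr9:49502136-49798925), and was picked for that after its values were seen. The WT PC libraries had 18, 23 and 17 counts of *Rpl10-ps3* and the KO PC libraries 3, 7 and 10, with 15, 11 and 5 in WT VMs against 4, 0 and 4 in KO VMs. The raw counts did not overlap in either cell type. In CPM, which allows for depth, the groups overlapped in both cell types, and the log2 fold changes were -1.48 (SE 0.91) in PCs and -1.40 (SE 0.82) in VMs, with adjusted p of 0.993 and 0.959 by edgeR's quasi-likelihood test and Benjamini-Hochberg adjustment. The copy matches *Rpl10* at all 740 aligned bases.

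A pair of *Rpl31* copies had their highest counts in WT PC library 2, and both were picked after their values were seen. *Rpl31-ps6* had 24 counts there, 0 in the other WT PCs, and at most 6 in any other library. *Rpl31-ps23* had 12 there and at most 3 elsewhere. Unlike *Rpl31-ps8*, these copies have drifted, to 91.3% and 92.4% identity, and 328 of 329 and 337 of 339 of their windows occur in no other gene.

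**Figure D4:**
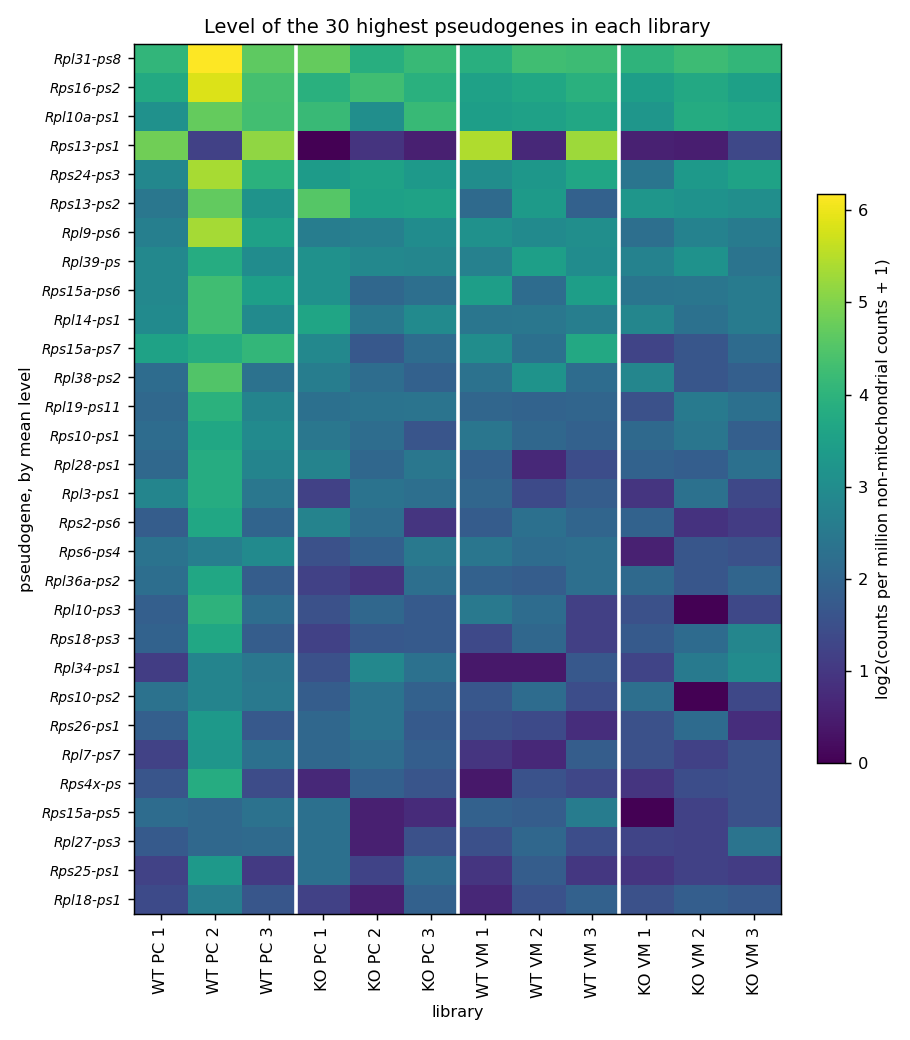
Level of the 30 pseudogenes with the highest means (rows, ordered by mean) in each of the 12 libraries (columns), as log2 of CPM plus 1, with white lines between groups. Rps13-ps1 alternates between bright and dark among the WT libraries, and the column of WT PC library 2 is the brightest for most rows.

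Across the whole set, no member passed an adjusted p of 0.05 in any comparison by edgeR's quasi-likelihood test. In KO PCs against WT PCs, 40 members reached the minimum mean normalized count of 5 and 0 were called, as were 0% of all genes, while DESeq2 called 1, *Rps13-ps1*. At an unadjusted p under 0.05, 3 members were lower in KO PCs (*Rps13-ps1*, *Rps15a-ps7* and *Rpl7a-ps5*), or 3 of 40, where 2.7% of all genes tested were lower. When 1 library was left out, the number lower ran from 1 (without KO PC library 2) to 7 (without WT PC library 1). The members tested had a median log2 fold change of -0.98 (0.00 for all genes), and of -0.08 without WT PC library 2. Since 13 of the 46 members entered through WT PC libraries alone, the choice of members bears on the sign of this median, and nothing is read from it.

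In KO VMs against WT VMs, 26 members were tested and 0 called by edgeR or by DESeq2, where 0.0373% of all genes were called by edgeR. At an unadjusted p under 0.05, *Rps13-ps1* and *Rps15a-ps7* were lower and *Rpl34-ps1* higher, against 3.25% of all genes lower and 1.87% higher. Without WT VM library 3 *Rps15a-ps7* was no longer among them, and without WT VM library 1, WT VM library 2 or KO VM library 3 *Rpl34-ps1* was not. The median log2 fold change was -0.17 for members, -0.03 for parents and -0.02 for all genes. The choice of members bears on the members' median here too, and nothing is read from it. *Rps6-ps4*, an exact copy of *Rps6* and among the 5 members with the smallest p, had 14, 11 and 15 counts in WT VMs and 1, 5 and 5 in KO VMs.

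**Figure D5:**
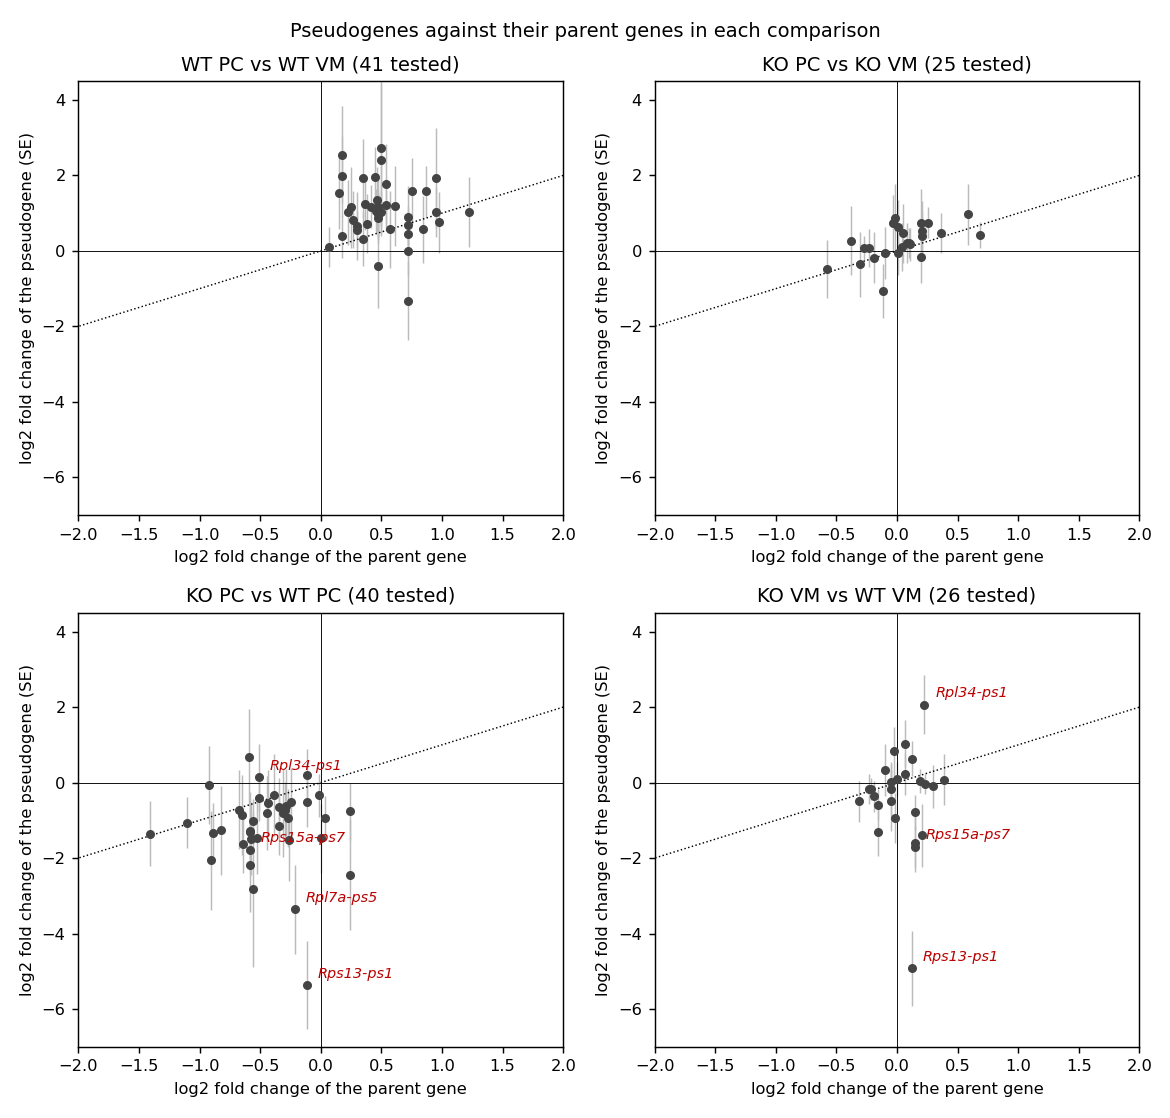
Log2 fold change of each tested pseudogene (vertical axis, bars are SE) against that of its parent gene (horizontal axis) in the 4 comparisons of groups, with a dotted line where both would be equal; the axes have different scales. Rps13-ps1 lies at -5.36 and -4.92 in the KO against WT panels while its parent lies near 0.

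Between cell types, the 41 members tested in WT PCs against WT VMs had a median log2 fold change of 1.03 (0.00 for all genes), with 38 above 0. The choice of members bears on this sign too, since none entered through WT VM libraries alone. By edgeR's adjusted p 0 members were called, where 0.11% of all genes were, and DESeq2 also called 0. At an unadjusted p under 0.05, 2 members were higher in PCs, *Rpl28-ps1* (log2 fold change 1.95, SE 0.81) and *Rpl3-ps1* (1.58, SE 0.68), where 5.14% of all genes were higher. Without WT PC library 2 these values were 1.28 and 1.05 and 0 members had an unadjusted p under 0.05, as was so without WT VM library 2 (1.57 and 1.37). Without WT PC library 2 the median was 0.19 and 27 of 38 members were above 0. This comparison and that of KO PCs with WT PCs share the WT PC libraries.

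*Rpl28-ps1* had 22, 20 and 28 counts for WT PCs and 9, 2 and 7 for WT VMs, and *Rpl3-ps1* 41, 20 and 21 against 10, 5 and 10, so the raw counts of both groups stood apart. *Rpl3-ps1*, the longest member at 1210 bases, copies the gene for one of the largest ribosomal proteins. *Rps6-ps2* and *Rpl31-ps8*, with *Rps16-ps2*, had the next smallest p-values. In the log2 ratio to the parent, *Rpl31-ps8* alone among 27 named members separated WT PCs from WT VMs, by 0.42, at the smallest exact permutation p of 0.1.

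In KO PCs against KO VMs, 25 members were tested, with a median log2 fold change of 0.21 (0.05 for parents, 0.01 for all genes). None was called by edgeR or by DESeq2, and 0 had an unadjusted p under 0.05, while edgeR called 0.872% of all genes. The member with the smallest p was *Rps13-ps2*, at 0.75 (SE 0.41), followed by *Rps18-ps3*, *Rps16-ps2*, *Rps6-ps4* and *Rpl7-ps7*.

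The test of whether the genotype difference itself differed between PCs and VMs took 33 members and called 0, as it did 0% of all genes by edgeR; DESeq2 also called 0. *Rps18-ps3* alone had an unadjusted p under 0.05, with an interaction of -2.46 (SE 1.11, edgeR quasi-likelihood, Benjamini-Hochberg adjusted p = 0.999), where 1.86% of all genes were lower. It had 19, 18 and 12 counts for WT PCs, 2, 5 and 10 for KO PCs, 5, 10 and 5 for WT VMs, and 5, 8 and 16 for KO VMs. For *Rps13-ps1* the interaction was -0.43 (SE 1.92), an error too wide to say whether PCs and VMs differed. Without WT PC library 2 the members' median interaction went from -0.80 to -0.03, and that of *Rps18-ps3* was -1.44.

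Over the 108 exact permutation tests of log2 ratios (27 named members in 4 pairs of groups), the smallest Benjamini-Hochberg adjusted p was 0.794. The 27 were named in part for small p-values in fits of these libraries or for counts near the entry limit. The same ratios were not tested over all genes, so nothing is read from the counts that follow. At the smallest raw p of 0.1 stood 1 member in WT PCs against WT VMs, 2 in KO PCs against KO VMs, 2 in KO PCs against WT PCs and 5 in KO VMs against WT VMs. Those in VMs, all lower in KO, were *Rpl19-ps4*, *Rpl21-ps8*, *Rps15a-ps5*, *Rps15a-ps7* and *Rps6-ps4*. With a pseudocount of 2 in place of 0.5, *Rpl19-ps4* and *Rpl21-ps8* went to an exact permutation p of 0.3 and 0.4 there, and *Rpl36a-ps4* reached 0.1 in PCs, where it was higher in KO.

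The ribosomal protein genes themselves were taken from fixed lists and not by their counts. Of 47 large subunit genes tested in KO PCs against WT PCs, 0 passed the adjusted p and 45 had negative values, with a median of -0.48, and of 33 small subunit genes 0 passed and 30 were negative, with a median of -0.53. The listed genes summed to 22445 CPM in WT PC library 2. WT PC libraries 1 and 3 had 9424 and 12370, which overlapped the KO PC values of 12835, 10139 and 8942. How far the signs rest on WT PC library 2 was not tested. In KO VMs against WT VMs the medians were 0.04 and 0.01. None of either list passed there by edgeR's quasi-likelihood test, and 1 large subunit gene was higher, 1 lower and 2 small subunit genes lower at an unadjusted p under 0.05. Of all genes tested there, 1.87% were higher and 3.25% lower. In KO PCs against WT PCs, 5 large and 6 small subunit genes were lower and 0 higher at that limit. The share of all genes lower in KO PCs was 2.7%.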

How the data were processed

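The 12 libraries were made with a low-input kit from sorted cells and sequenced as 50-base paired ends. The deposited values are raw gene counts, which the authors made with STAR 2.5.0c on mm10 and HTSeq 0.6.0. Pairs aligned to several places are in a class of their own and are on no gene, and whether counting used strand is not given in the sources used here, so reads of a pseudogene and of a gene on the opposite strand cannot be told apart. Of 19 members that overlap another gene, 9 do so on the same strand. Some 468 of the 48526 gene identifiers had no symbol. The 5 classes without a gene stayed out of library sizes and tests.

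The members, gene lists and comparisons were chosen with earlier results of these data known. Fits used edgeR 4.0.16 (TMM, quasi-likelihood test, mean normalized count above 5, Benjamini-Hochberg adjustment over all genes), with the 6 libraries of each pair of groups, or all 12 for the interaction. DESeq2 was an alternative, as were its size factors, other filters, removal of mitochondrial genes, a replicate block and leaving out each library. Scripts were tested on simulated data. Log2 ratios to the parent used a pseudocount of 0.5. Named were members called or on and off, the 10 highest, the 5 smallest p-values in each fit, those with highest counts of 9 to 11, and their parents, beside *Ncam1* and *Cntn2*; others named are said to have been picked after their values were seen. Members were aligned with Biopython to GENCODE M21 transcripts (GRCm38), and 50-base windows were matched exactly on both strands. Some genes that these rules would name are not reported here.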

Additional observations from a re-analysis of the deposited data

How the results depend on the processing

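No member passed the adjusted p in the fits as reported, and this changed in few settings. In KO PCs against WT PCs, 1 member was called by DESeq2 and 1 without a filter on low counts, and 0 or 1 when a library was left out. In KO VMs against WT VMs, 2 were called without a filter (*Rps13-ps1* and *Rps15a-ps8*), and 0 or 1 when a library was left out. The 2 called without a filter had entered the set through WT libraries alone, and nothing is read from those calls. The calls without a library were those on *Rps13-ps1* without WT PC library 2 and without WT VM library 2, and the cause of the other changes was not tested. Apart from the replicate block, given next, the other settings and comparisons gave 0 calls. For *Rps13-ps1* the adjusted p ran from 2.03e-06 to 0.9998 over 12 settings in PCs, where its log2 fold change stayed from -5.93 to -4.89. In VMs the adjusted p ran from 8.18e-23 to 0.99996 and the fold change from -5.77 to -4.45. None of the 10 fold changes followed over the settings changed sign.

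With the replicate number as a block, 1 member, *Rps13-ps1*, was called in KO VMs against WT VMs (adjusted p = 0.00100). Libraries of the same number in WT PCs and WT VMs had correlated deviations of 0.081 to 0.206 over 8100 genes, and in KO -0.012 to 0.120. Those of KO VMs and WT VMs had -0.077 to 0.055, so the numbers were not taken to pair KO with WT libraries. Whether PC and VM libraries of a number came from the same hearts is not stated, and the main fits treated them as independent. The titles number the WT libraries 1, 2 and 3, as used here, and the source names 1, 3 and 4.

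The count of 1 member on in 1 group and off in another became 0 with limits of 5 and 1, 0 with 20 and 3, and 0 in thinned counts, and was 1 or 2 when a library was left out. The summed level in KO PCs over WT PCs was 0.494, ranging from 0.399 to 0.765 when a library was left out, and in WT PCs over WT VMs 1.92, ranging from 1.24 to 2.37. In KO VMs over WT VMs it was 0.723 in CPM. On the scale of parent counts it was 0.756, and 0.887 without *Rps13-ps1*, both settings chosen after seeing the data. With windows of 75 bases in place of 50 a member shared a median of 61.7% of its windows with other genes. A search of the genome was not run. Depth limits these results: most members hold under 20 counts in a library.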

Other observations

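Beside *Rps13-ps1* and *Rps15a-ps8*, 1 further gene of the 48526 in the files had 9 or more counts in libraries 1 and 3 of WT PCs and of WT VMs and 4 or fewer in the other 8 libraries, with limits set after the values were seen. It was *1500002F19Rik* (GRCm38, chr7:132874739-132931197), typed as a processed transcript. It had 9 and 20 counts in WT PC libraries 1 and 3 and 0 in library 2, 14 and 13 in WT VM libraries 1 and 3 and 0 in library 2, and at most 4 in any KO library. The 3 genes lie on chromosomes 8, 4 and 7.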
